A study of Mus musculus with 24 samples.

Results

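The olfactory bulb of wild-type C57BL/6 mice was compared with the cerebellum, the cortex and the hippocampus of wild-type mice of the same strain. The comparison took 12 of the 24 libraries of the study, chosen by label as every wild-type library: 3 of olfactory bulb and 3 of each other region. For each gene, the olfactory bulb level was set against the mean of the log2 levels of the other 3 regions, so that each region counted equally. The study profiled total RNA, depleted of ribosomal RNA, in these 4 regions of wild-type mice and of Cdr1as knockout mice, which lack a locus that gives rise to a circular RNA. The knockout libraries were used only to repeat the comparison. The labels used here state no age, sex or treatment for either genotype.

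The olfactory bulb is the first relay of the sense of smell in the brain. Axons of sensory neurons in the nose end in its glomeruli, where they contact mitral and tufted cells, the glutamatergic neurons that carry its output. Inhibitory granule and periglomerular cells outnumber these output neurons, and they are renewed in adult mice by neuroblasts that migrate in from the ventricle wall. Olfactory ensheathing glia surround the incoming sensory axons.

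The 3 olfactory bulb libraries held 7.4 M, 21.26 M and 11.95 M gene counts (M, counts in units of 1e6), and the 9 others held between 9.9 M and 30.46 M. Olfactory bulb replicate 1, the shallowest of the 12, had counts for 16483 genes, and the other 11 had counts for between 20024 and 22619. Reads assigned to no annotated feature made up 58.71% to 62.92% of the olfactory bulb libraries and 20.34% to 60.22% of the 9 others, with cortex replicate 1 lowest. The labels held against known regional markers. A set of 6 olfactory bulb markers (Eomes, Tbx21, Cdhr1, Doc2g, Th and Sp8) had a mean log2(CPM + 0.5) of 6.61 to 6.73 in olfactory bulb libraries and at most 2.60 elsewhere, where CPM is the count per 1e6 gene counts after TMM scaling. Within the cerebellum group, replicate 1 stood apart for some transcripts that were near 0 in its other replicates, such as Nrgn, at 31.3 CPM against 0.879 and 2.88. Values without that library are given where it mattered. The labels do not say that replicates came from separate animals, so each p-value reflects variation among these libraries only, and that variation may be technical. The library kit preserves strand, but whether counting used strand is not given in the sources used here, so overlapping and antisense genes such as Dlx6os1 and Dlx6 are uncertain.

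Many genes differed between olfactory bulb and the other regions, in both directions. Of 16995 genes tested, 3134 (18.4%) were higher in olfactory bulb and 2973 (17.5%) were lower at an adjusted p under 0.05 (edgeR quasi-likelihood F-test, two-sided, with Benjamini-Hochberg adjustment), together 6107 genes or 35.9%. At least a 2-fold difference was fitted for 1479 of the higher genes (8.70% of those tested) and for 1068 of the lower genes (6.28%). The 1479 higher genes took 8.41%, 8.51% and 8.36% of all gene counts in the 3 olfactory bulb libraries, a mean of 8.43% ± 0.0756 (SD, n = 3). They took a mean of 2.24% in cerebellum, 3.47% in cortex and 3.27% in hippocampus. The 1068 lower genes took 3.36% ± 0.0913 of olfactory bulb counts (SD, n = 3) and means of 11.1%, 9.52% and 9.68% in the same order. These genes were chosen by the same contrast, so the shares describe their size and test nothing. Counts of list members given below for this contrast stand against these shares of 18.4% higher and 17.5% lower over all genes tested. Counts against a single region stand against the shares for that region. Over all genes tested, these were 19.6% higher and 17% lower for cerebellum, 18.7% and 19.7% for cortex, and 15.8% and 18% for hippocampus. In bulk tissue, more cells of a type and more RNA per cell cannot be told apart, and this holds for every difference given here.

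Far fewer genes set the olfactory bulb apart from each other region taken singly. A 2-fold difference that passed the test against cerebellum, against cortex and against hippocampus was found for 568 higher genes (3.34%) and 357 lower genes (2.10%). Among the 568, the region nearest to olfactory bulb in level was cortex for 279, hippocampus for 165 and cerebellum for 124. All 3 olfactory bulb libraries lay above all 9 others for 1527 genes (8.98%) and below them for 1448 (8.52%). A mean of logs can place a gene as higher when it is nearly absent from 1 region only. Emx1, a transcription factor of the dorsal forebrain, is such a gene: it had 0 counts in cerebellum and means of 2.87 CPM in olfactory bulb, 12.1 in cortex and 8.06 in hippocampus. Among the 3134 higher genes, 59 had a lower mean than the plain average of the other regions, and none of the 2973 lower genes went the other way.

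The transcripts that most separated the olfactory bulb from the other regions were abundant there and near 0 elsewhere. Frmd7, a FERM domain protein known for inherited nystagmus, stood at 168, 171 and 154 CPM in olfactory bulb. The 9 other libraries ranged from 0.184 CPM in cerebellum to 4.72 CPM in cortex, so the groups lay far apart. The fitted difference was 127-fold (log2 6.99, SE 0.14, edgeR quasi-likelihood adjusted p = 7.69e-13). Adamts19, a secreted metalloprotease, stood at 56.4, 65.8 and 67.9 CPM and was 214-fold higher, and Shisa3, an inhibitor of Wnt and FGF signalling, stood at 87.6, 62.4 and 71.6 CPM and was 188-fold higher. Cpa6, a carboxypeptidase, stood at 73.2, 68.9 and 69.0 CPM and was 147-fold higher. The highest value of these 3 genes in any of the 9 other libraries was 2.78 CPM. Some genes had too few counts in a region for a fitted fold change to be meaningful. Ms4a15, a membrane protein of the MS4A family, had 2519 counts over the olfactory bulb libraries, 2 in cerebellum, 63 in cortex and 1 in hippocampus. Trdn, which encodes triadin, had no count in cerebellum and was at least 396-fold higher in olfactory bulb, against a floor of 3 counts over the group. Foxd3, a transcription factor of the neural crest, had no count in cerebellum or hippocampus and was at least 137-fold higher than either.

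Transcripts of the sensory axons were mixed. Of 16 tested members of a list for olfactory sensory neurons and their axons, 6 were higher and 2 lower, with a median log2 difference of 0.53 against 0.005 over all genes tested. Omp, the olfactory marker protein of mature sensory neurons, stood at 49.7, 54.5 and 75.8 CPM in olfactory bulb and at 0.586 to 2.49 CPM in the 9 other libraries. It was 33.6-fold higher, with no overlap between groups (log2 5.07, SE 0.27, edgeR adjusted p = 3.52e-09). S100a5, a calcium-binding protein of the same neurons, had 52.0, 56.2 and 52.4 CPM in olfactory bulb and 0.841, 0.206 and 0.705 CPM in cortex, a log2 difference of 6.38 (SE 0.36), and had 2 counts in all of cerebellum and 1 in all of hippocampus. Stoml3, a stomatin-like protein of olfactory cilia and touch neurons, stood at 8.12, 10.3 and 15.8 CPM against at most 0.817 elsewhere. In contrast, Gnal, the G protein subunit that couples odorant receptors, was lower in every olfactory bulb library (51.4, 57.1 and 58.8 CPM) than in all 9 others (118 to 363 CPM). Its log2 difference was -1.71 (SE 0.11, edgeR adjusted p = 3.03e-08). Gap43, a growth cone protein of both sensory axons and central neurons, was also lower, at 33.6, 39.1 and 45.0 CPM against 71.6 to 178 CPM. Adcy3, the adenylate cyclase of olfactory signalling, had a log2 difference of -0.24 and did not pass the test (edgeR adjusted p = 0.198), but passed as lower without cortex replicate 2 (0.0443). The count of lower genes on the list was then 4.

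Odorant receptor messages were present at the limit of detection. Of 985 olfactory receptor genes in the files, 8 were abundant enough to test. The 2 called higher, Olfr111 and Olfr32, passed the filter on low counts through the olfactory bulb libraries, so that count is no measure of the family. Without cortex replicate 2 the count was 4, and with no filter it was 13 of 310 tested, none lower than the mean of the regions. Olfr111 stood at 4.62, 4.87 and 2.46 CPM in olfactory bulb and at most at 0.353 CPM elsewhere, with 0 counts in hippocampus. Olfr32 stood at 1.12, 0.956 and 1.03 CPM and had 0 counts in all 9 other libraries, at least 22.6-fold, 19.6-fold and 22.7-fold above cerebellum, cortex and hippocampus. Olfr922 and Olfr550 had 0 counts in olfactory bulb. Olfr922 was lower than cerebellum alone (mean 0.755 CPM, edgeR adjusted p = 0.00369), and Olfr550 was lower than hippocampus alone (mean 0.859 CPM, adjusted p = 0.0031). With SEs of 3455 and 7256, the contrast with the mean could call neither. Receptor genes with any count numbered 8, 156 and 125 in the olfactory bulb libraries and 21 to 57 in the 9 others. Replicate 1, which was also the shallowest library, fell below all others, and replicates 2 and 3 above them. The summed level of receptor genes was 10.2, 22.9 and 20.8 CPM in olfactory bulb replicates 1, 2 and 3, and 6.66 to 12.8 CPM elsewhere. By this sum too, replicate 1 did not exceed the other regions. The part of depth was not tested. Receptor genes are near-identical in families, and how reads shared between copies were counted is not given in the sources used here.

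Output neurons were marked by a small set of genes against a divided background. Of 18 mitral and tufted cell genes, 8 were higher and 6 lower (3 lower without olfactory bulb replicate 2), and 6 of the higher (Cdhr1, Doc2g, Eomes, Nmb, Ntng1 and Tbx21) were at least 2-fold higher than in each other region. Tbx21, a T-box factor restricted to mitral and tufted cells within the brain, stood at 22.4, 21.9 and 27.7 CPM, against 0.0478 to 1.10 CPM elsewhere. It was 124-fold higher (log2 6.96, SE 0.25, edgeR adjusted p = 7.32e-11). Its relative Eomes stood at 126, 98.5 and 104 CPM in olfactory bulb, at 27.6, 19.9 and 24.3 CPM in cerebellum, where unipolar brush cells carry it, and at 0.655 to 3.88 CPM in cortex and hippocampus. It was 28.0-fold higher overall (edgeR adjusted p = 3.72e-11). Tbr1, the third gene of that family, was ordered differently: 15.4, 16.9 and 17.0 CPM in olfactory bulb, 149, 156 and 127 CPM in cortex and 45.1, 47.4 and 57.8 CPM in hippocampus. Its difference from the mean of the regions was -0.22 (SE 0.13, edgeR adjusted p = 0.192), and it lay 3.13 log2 units below cortex. Per kilobase of exon, the scale on which genes can be compared, olfactory bulb had 26.3 ± 3.55 CPM of Eomes, 9.64 ± 1.28 of Tbx21 and 3 ± 0.171 of Tbr1 (SD, n = 3).

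Cdhr1, a cadherin of mitral and tufted cells, stood at 444, 457 and 528 CPM in olfactory bulb. Cortex had 32.7, 15.8 and 20.5 CPM, hippocampus 11.7 to 15.2 CPM, and cerebellum 1.95, 0.314 and 0.0612 CPM. It was 71.6-fold higher (log2 6.16, edgeR adjusted p = 9.16e-09), and the log2 difference was 6.93 without cerebellum replicate 1. Doc2g, a synaptic double C2 protein, was 51.0-fold higher, and Nmb, the peptide neuromedin B, was 8.76-fold higher. The vesicular glutamate transporters that load transmitter in these cells were not raised in the tissue as a whole. Slc17a7 (VGLUT1) stood at 319, 295 and 370 CPM against 346 to 414 CPM in cerebellum and 700 to 1120 CPM in cortex and hippocampus, a log2 difference of -1.06 (edgeR adjusted p = 1.97e-05). Slc17a6 (VGLUT2) stood at 27, 27.7 and 26.3 CPM, within the range of the other libraries (15.6 to 69.0 CPM), and did not pass the test (log2 -0.38, adjusted p = 0.501).

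**Figure D1:**
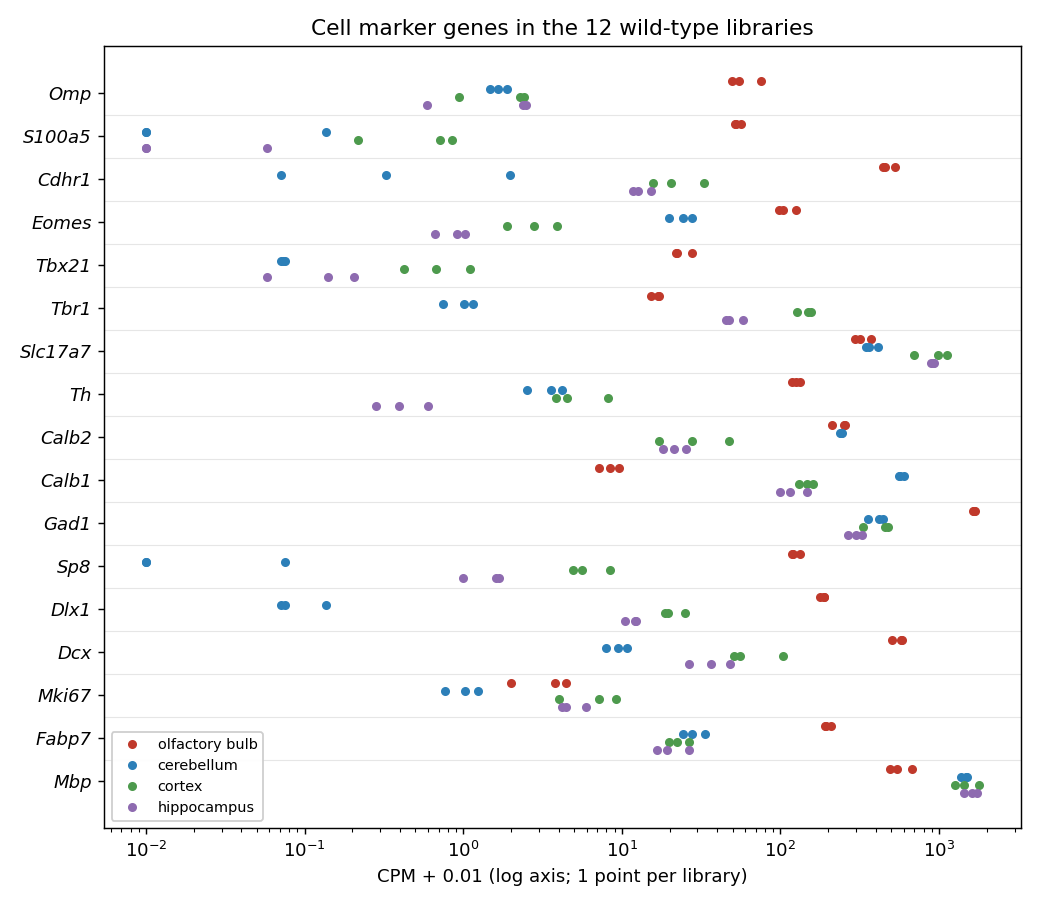
CPM (TMM-scaled, with 0.01 added, log axis) of cell marker genes in each of the 12 wild-type libraries, 1 point per library, coloured by region. Points of Cdhr1, Tbx21, Omp, Th and Gad1 from olfactory bulb lie above all 9 others, those of Calb1 lie below all 9, and those of Calb2 lie close to the cerebellum points.

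Genes of local inhibitory neurons were mostly higher. Of 18 granule cell genes tested, 16 (88.9%) were higher, 1 was lower and 11 were at least 2-fold higher than in each other region. The median log2 difference was 2.94. Gad1, which makes GABA, stood at 1646, 1677 and 1650 CPM in olfactory bulb. Cerebellum had 356 to 442 CPM, cortex 333 to 476 CPM and hippocampus 266 to 327 CPM, so the groups lay well apart. The difference was 4.47-fold (log2 2.16, SE 0.10, edgeR adjusted p = 1.1e-09). Its relative Gad2 stood at 500, 462 and 480 CPM and differed by 2.41-fold, with the nearest value, 342 CPM, in cortex. Per kilobase of exon, Gad1 reached 217 ± 2.15 CPM in olfactory bulb and Gad2 81.8 ± 3.29, against 55.1 and 54.8 in cortex. Camk4, a calcium-dependent kinase, was the single granule cell gene that was lower, at 206, 195 and 170 CPM against 213 to 1515 CPM.

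The Dlx homeodomain factors, which act in interneurons born in the ganglionic eminences, were high in olfactory bulb and at or near 0 in cerebellum. Dlx1 stood at 177, 188 and 188 CPM, against 24.9, 19.5 and 18.6 CPM in cortex, 10.5, 12.1 and 12.3 CPM in hippocampus and 0.0612 to 0.126 CPM in cerebellum. Its log2 difference was 6.06 (SE 0.12, edgeR adjusted p = 5.84e-13). Dlx2 had 52.9, 42.8 and 52.8 CPM and no count in cerebellum, which places it at least 1066-fold higher there. It was 2.84 log2 units above cortex. Dlx5 and Dlx6, of the same family, likewise had no count in cerebellum, with lower bounds of 679-fold and 619-fold. Meis2, a TALE homeodomain factor, stood at 816, 896 and 842 CPM and was 19.6-fold higher. Pbx3, of the same class, stood at 319, 286 and 294 CPM against 7.85 to 31.0 CPM, a 16.4-fold difference. Tshz1, a zinc finger factor known to act in migrating olfactory interneurons, stood at 406, 406 and 402 CPM in olfactory bulb against 21.6 to 56.1 CPM (10.3-fold, edgeR adjusted p = 3.97e-12). Synpr, the synaptic vesicle protein synaptoporin, was 5.76-fold higher.

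Periglomerular cells are usually split by their calcium-binding proteins and by dopamine, and the 3 markers behaved differently. Of 16 tested genes of these cells, 13 were higher and 2 lower, with a median of 2.32. Th, the rate-limiting enzyme of dopamine synthesis, stood at 125, 118 and 132 CPM, against 2.51 to 4.16 CPM in cerebellum, 3.81 to 8.21 CPM in cortex and 0.273 to 0.589 CPM in hippocampus. It was 63.6-fold higher (log2 5.99, SE 0.19, edgeR adjusted p = 2.2e-11). Calb2 (calretinin) stood at 212, 254 and 251 CPM, near the level in cerebellum (239, 246 and 239 CPM, log2 difference -0.02), where granule cells carry it, and above cortex and hippocampus (17.2 to 47.4 CPM). Calb1 (calbindin) stood at 9.62, 8.47 and 7.21 CPM, against 555 to 601 CPM in cerebellum and 99.9 to 160 CPM in cortex and hippocampus. It was 25.8-fold lower, with every olfactory bulb library below every other (log2 -4.69, SE 0.16, edgeR adjusted p = 5.54e-11). Per kilobase of exon, olfactory bulb held 137 ± 13.4 CPM of Calb2 and 1.74 ± 0.249 of Calb1 (SD, n = 3).

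The rest of the dopamine machinery did not follow Th as a whole. Of 16 tested genes of monoamine synthesis, storage, breakdown and reception, 4 were higher and 6 lower. The dopamine transporter Slc6a3 stood at 15.9, 7.73 and 9.28 CPM against at most 0.712 CPM elsewhere (47.5-fold, edgeR adjusted p = 4.39e-09), and the vesicular monoamine transporter Slc18a2 was 9.62-fold higher. Ddc, which turns L-DOPA into dopamine, had a log2 difference of 0.78. Enzymes of the cofactor tetrahydrobiopterin were lower, Spr with a log2 difference of -1.32 and Qdpr with -0.78, and Maob, which degrades monoamines, was lower by 0.63 on the log2 scale. The dopamine receptor gene Drd1 did not pass the test (log2 0.12, edgeR adjusted p = 0.806).

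Genes of migrating neuroblasts were almost all higher: 18 of 20 tested, none lower, with a median of 1.53. Dcx, the microtubule protein doublecortin of migrating young neurons, stood at 575, 587 and 507 CPM, against 7.96 to 10.8 CPM in cerebellum, 50.9 to 104 CPM in cortex and 26.5 to 48.3 CPM in hippocampus. Hippocampus, which also forms neurons in adult mice, thus lay far below olfactory bulb and below cortex. The difference was 19.2-fold (log2 4.26, SE 0.19, edgeR adjusted p = 6.13e-10). Sp8, a zinc finger factor of olfactory interneurons, stood at 120, 133 and 118 CPM, against 8.47, 5.57 and 4.90 CPM in cortex and 1.6, 0.982 and 1.67 CPM in hippocampus, and had 2 counts in cerebellum. It lay 4.30 log2 units above cortex (SE 0.23). Its relative Sp9 was 40.4-fold higher. Prokr2, the prokineticin receptor that guides neuroblasts into the bulb, stood at 21.9, 31.8 and 36.5 CPM and was 14.3-fold higher. Igfbpl1, an insulin-like growth factor binding protein, was 16.8-fold higher, the transcription factor Sox4 was 6.26-fold higher and Cd24a, a surface protein of neuroblasts, was 3.51-fold higher.

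The promoters of Dcx and Sp8 are shown because both genes are high where Dlx factors are high and both carry TAATTA, the core that Dlx and other homeodomain proteins are known to bind. Each runs from 250 bases before the RefSeq start to 50 bases after it, with TAATTA in capitals. For each gene, the promoter shown was taken from those that contain TAATTA. Dcx lies on the minus strand at chrX:143933170-143933469 and Sp8 on the plus strand at chr12:118847309-118847608, both in GRCm38.p6, a later build than the one the files use.
Dcx: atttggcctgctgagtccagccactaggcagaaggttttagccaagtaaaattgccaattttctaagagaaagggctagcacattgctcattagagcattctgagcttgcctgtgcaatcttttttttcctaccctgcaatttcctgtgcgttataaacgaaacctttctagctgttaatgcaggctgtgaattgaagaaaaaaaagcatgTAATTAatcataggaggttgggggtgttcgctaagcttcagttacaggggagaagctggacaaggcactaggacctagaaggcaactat
Sp8: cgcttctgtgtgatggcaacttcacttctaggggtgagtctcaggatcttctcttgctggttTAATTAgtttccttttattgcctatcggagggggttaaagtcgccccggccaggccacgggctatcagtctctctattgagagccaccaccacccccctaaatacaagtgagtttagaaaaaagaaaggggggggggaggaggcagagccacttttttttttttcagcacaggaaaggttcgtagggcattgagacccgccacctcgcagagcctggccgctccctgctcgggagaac
The motif begins 39 bases before the start of Dcx and 188 bases before that of Sp8, and it reads the same on both strands. Shares were counted by gene, a gene counting if any of its promoters held the motif. They were 5.48% of genes at least 2-fold higher in olfactory bulb (48 of 876) and 5.13% of lower genes (39 of 760). The share was 3.66% of all tested genes with a matched promoter (432 of 11808) and 6.12% of all genes with a promoter. The match is a description of these letters, not of a bound site.

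Markers of dividing cells gave a different count from those of young neurons. None of 19 tested proliferation genes was higher by edgeR, also at an unadjusted p under 0.05, and 3 were lower, with a median of -0.18. Mki67, present in all dividing cells, stood at 2, 4.43 and 3.81 CPM in olfactory bulb, above cerebellum (0.754 to 1.22 CPM) and overlapping cortex and hippocampus (4.01 to 9.18 CPM). Its log2 difference was 0.13 (edgeR adjusted p = 0.774). The counts allowed a test for 19 of the 22 list members; a small difference in the low ones may lie below what this depth can show.

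**Figure D2:**
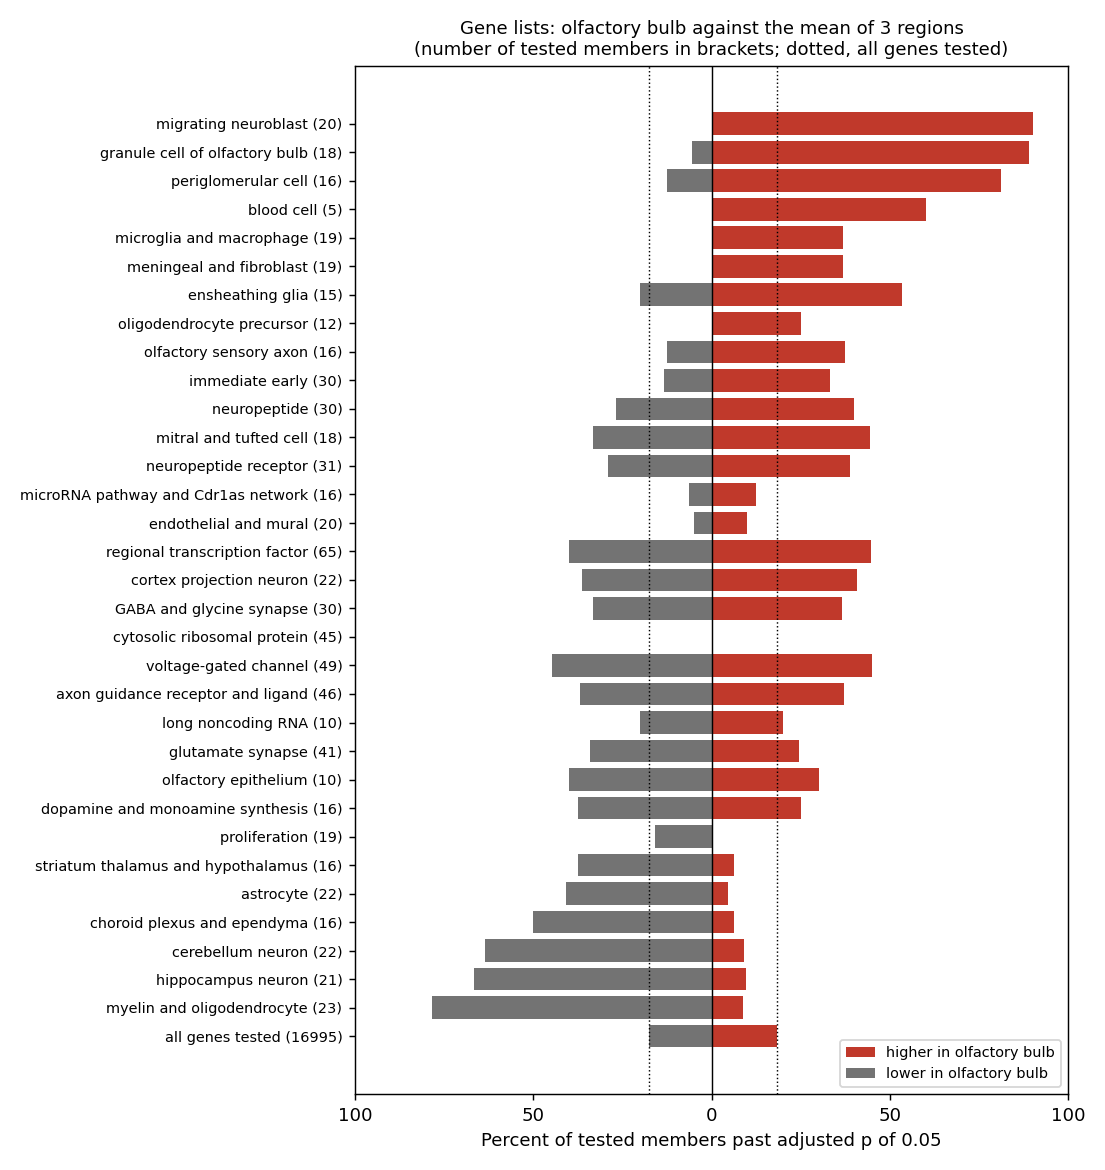
Percentage of the tested members of each gene list that were higher (red, right) and lower (grey, left) in wild-type olfactory bulb than in the mean of the other 3 regions, with dotted lines at the percentages over all 16995 genes tested. Granule cell, periglomerular and neuroblast lists lean to higher, myelin, cerebellum and hippocampus lists lean to lower, and the ribosomal protein list has no call on either side.

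Genes of the ensheathing glia of the olfactory nerve layer were mixed. Of 15, 8 were higher and 3 lower, and their summed level of 1631 to 1753 CPM in olfactory bulb lay within the range of the other libraries (1607 to 2220 CPM). Fabp7, a fatty acid binding protein of ensheathing and radial glia, stood at 208, 190 and 194 CPM, against 16.6 to 33.4 CPM in the 9 other libraries, with all 3 other regions at about the same level. It was 8.26-fold higher (log2 3.05, edgeR adjusted p = 2.82e-10). Frzb, a secreted Wnt inhibitor, stood at 55.7, 67.0 and 65.6 CPM and was 6.52-fold higher, and Matn4, a matrix protein, was 4.78-fold higher. Apod, an apolipoprotein, stood at 282, 336 and 308 CPM against 80.2 to 126 CPM (2.95-fold). Among the lower genes, S100b, a calcium-binding protein of glia, had a log2 difference of -0.59 and was lower than cerebellum but did not pass against cortex or hippocampus taken alone.

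Most myelin transcripts were lower. Of 23 tested genes of oligodendrocytes, 2 (Aspa and Sox10) were higher and 18 (78.3%) were lower, each of these at least 2-fold and each with all 3 olfactory bulb libraries below all 9 others. The median log2 difference was -1.31, and it was close to that against each region: -1.21 for cerebellum, -1.31 for cortex and -1.37 for hippocampus. Mbp, myelin basic protein, stood at 488, 544 and 678 CPM, against 1370 to 1494 CPM in cerebellum, 1262 to 1782 CPM in cortex and 1439 to 1738 CPM in hippocampus. It was 2.65-fold lower (edgeR adjusted p = 9.71e-07). Ermn, of mature oligodendrocytes, was 3.34-fold lower, and Trf, the iron carrier transferrin, was 3.90-fold lower. Aspa, which breaks down N-acetylaspartate in oligodendrocytes, went the other way, at 28.0, 25.9 and 22.2 CPM against 12.6 to 20.2 CPM (log2 0.63, edgeR adjusted p = 0.00792).

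Of 12 tested genes of oligodendrocyte precursors, 3 (25%, against 18.4% of all genes) were higher and none was lower than the mean of the regions, and the median was -0.24. The medians were 0.55 against cerebellum, -0.56 against cortex and -0.54 against hippocampus. Pdgfra, the growth factor receptor of precursors, had a log2 difference of -0.26 and did not pass the test (edgeR adjusted p = 0.0721), and it passed as lower without cortex replicate 2 (adjusted p = 0.0272) or without hippocampus replicate 1 (0.0374). Sox10, a factor of the whole lineage, stood at 33.6, 38.0 and 36.5 CPM, just above all 9 others (18.5 to 32.9 CPM), with a log2 difference of 0.46 (adjusted p = 0.00804, and 0.0546 without olfactory bulb replicate 2). No test of myelin against precursor genes was made. Among 22 astrocyte genes, 1 was higher and 9 lower, 3 of these by at least 2-fold. Aldoc, an aldolase of astrocytes and Purkinje cells, stood at 338, 375 and 354 CPM and was 1.81-fold lower, while Slc4a4, a bicarbonate transporter, had a log2 difference of 0.50.

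**Figure D3:**
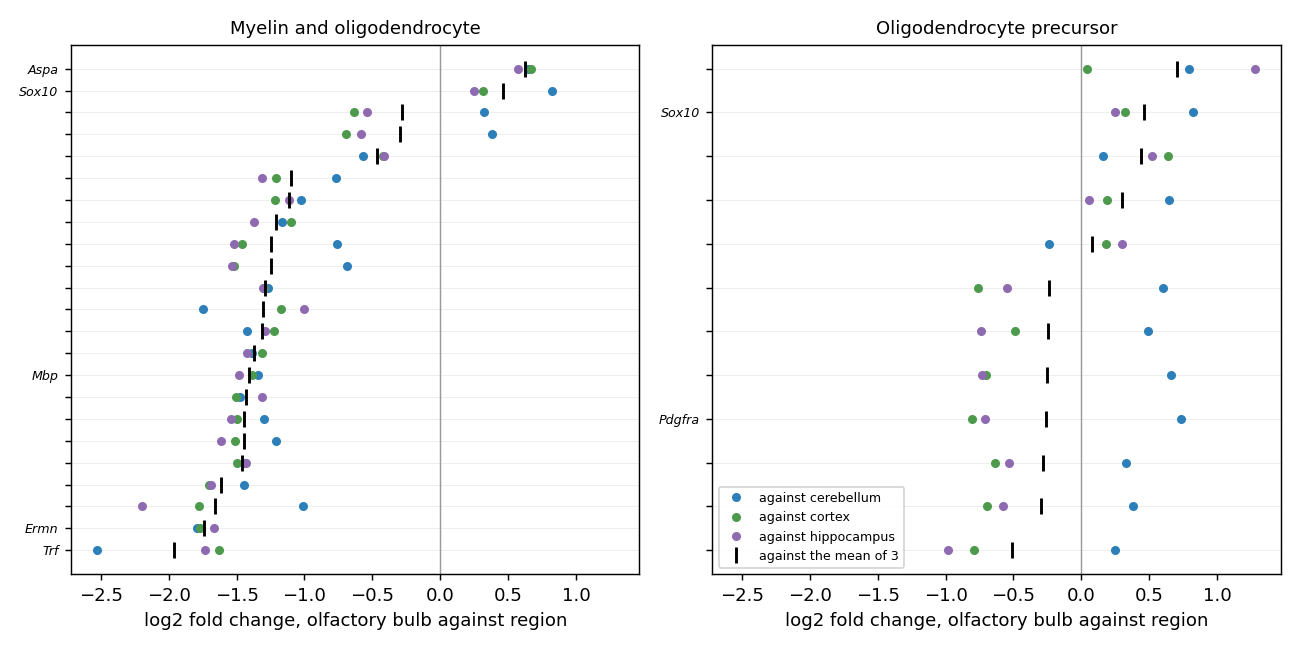
Log2 difference of wild-type olfactory bulb from each other region (coloured points) and from the mean of the 3 (black ticks) for each tested gene of the myelin list (left) and of the oligodendrocyte precursor list (right), the line at 0 marking no difference and names given for genes described in the text. For the 18 myelin genes that passed as lower all points lie below 0, and most precursor genes lie above 0 against cerebellum and below 0 against cortex and hippocampus.

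Several neuronal factors that mark excitatory neurons elsewhere were at very low levels in olfactory bulb. Neurod2, a basic helix-loop-helix factor of excitatory neurons, stood at 1.12, 2.56 and 2.77 CPM, against 72.2 to 86.1 CPM in cerebellum, 46.0 to 56.6 CPM in cortex and 87.3 to 114 CPM in hippocampus. It was 32.6-fold lower (edgeR adjusted p = 3.19e-10). Its relative Neurod6 stood at 0.625, 0.695 and 0.714 CPM and was 39.6-fold lower, and Neurod1 stood at 3.87, 5.82 and 4.68 CPM and was 7.29-fold lower. Prdm8, a partner of the related factor Bhlhe22 in circuit formation, stood at 0.5, 0.13 and 0 CPM against 17.7 to 51.1 CPM. It was 158-fold lower, and its log2 difference of -7.31 became -8.22 without olfactory bulb replicate 1. Bhlhe22 itself had a log2 difference of -4.96. Ntf3, the growth factor neurotrophin-3, had no count in olfactory bulb and was at least 71.5-fold lower than cerebellum, 10.3-fold lower than cortex and 65.2-fold lower than hippocampus.

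The lists of neurons of the other regions differed in how far olfactory bulb lay below the mean, which includes each list's own region. Of 22 cerebellar neuron genes, 14 were lower and 2 higher, with a median of -2.78, or -2.16 with the 3 genes at 0 in a region put at the bound that 3 counts give. Without that bound, the median was -5.98 against cerebellum, -0.96 against cortex and -0.72 against hippocampus. Gabra6, the GABA receptor subunit of cerebellar granule cells, had no count in olfactory bulb and was at least 7687-fold lower than cerebellum. Itpr1, the calcium release channel abundant in Purkinje cells, stood at 242, 257 and 256 CPM against 4296 to 4522 CPM in cerebellum and 789 to 1277 CPM in the other 2 regions, and was 6.49-fold lower. Of 21 hippocampal neuron genes, 14 were lower and 2 higher, with a median of -2.22. It was 0.26 against cerebellum, -1.68 against cortex and -4.18 against hippocampus. Prox1, a factor of dentate granule cells, stood at 4.37, 9.52 and 8.09 CPM, against 162 to 215 CPM in hippocampus, and was 10.9-fold lower. Of 22 cortical projection neuron genes, 9 were higher and 8 lower, with a median of -0.09, but against cortex alone 16 were lower and 1 was higher, where 19.7% and 18.7% of all genes tested were.

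Over 65 tested regional transcription factors, 29 were higher and 26 lower, 14 and 7 of them by at least 2-fold against each region. The nuclear factor I genes Nfix, Nfia, Nfib and Nfic, which act in glia and in neuronal maturation, were each lower than the mean of the regions. Nfix stood at 98.3, 103 and 111 CPM against 243 to 410 CPM, a log2 difference of -1.65 (SE 0.12, edgeR adjusted p = 1.16e-07), Nfia was lower by 1.08 and Nfib by 0.83 on the log2 scale. These 3 lay below every other library. Nfic was lower by 0.77 but was level with hippocampus, with means of 75.3 CPM in olfactory bulb and 75.1 CPM there. Pax6, which has roles in periglomerular cells and in cerebellar granule cells, stood at 88.4, 90.3 and 81.5 CPM, between cerebellum (158 to 183 CPM) and the other 2 regions (8.80 to 14.3 CPM). Bcl11a, a zinc finger factor, stood at 288, 305 and 285 CPM and was 4.18-fold higher.

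Voltage-gated ion channels were reordered, with as many higher as lower. Of 49 genes tested, 22 were higher, 22 were lower and 5 did not pass, and the median was 0.03. Of 8 sodium channel genes, 6 were lower and 2 higher. Scn4b, the beta 4 subunit that gives resurgent current, stood at 2.62, 2.39 and 3.73 CPM, against 82.0 to 100 CPM in cerebellum, 144 to 284 CPM in cortex and 18.5 to 25.2 CPM in hippocampus. It was 25.8-fold lower. Scn2b, another beta subunit, was 4.19-fold lower, and the pore-forming Scn8a (224, 220 and 230 CPM against 516 to 736 CPM) and Scn2a (284, 282 and 276 CPM against 541 to 922 CPM) were 2.65-fold and 2.62-fold lower. Scn3a, a pore-forming subunit of immature neurons, was higher, at 163, 194 and 186 CPM against 4.65 to 146 CPM, though not against cortex alone (edgeR adjusted p = 0.0923).

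Of 29 potassium channel genes and their partners, 13 were higher and 12 lower. Kcnb2, a delayed rectifier, stood at 151, 153 and 149 CPM against 11.5 to 44.1 CPM in all 9 others and was 6.36-fold higher (edgeR adjusted p = 1.31e-10). Kcnc4, a fast delayed rectifier, was 4.88-fold lower, and Kcna1, a channel of axons (157, 184 and 168 CPM against 306 to 764 CPM) was 2.65-fold lower. Among 4 cyclic-nucleotide gated pacemaker genes, Hcn4 stood at 25.5, 32.9 and 33.5 CPM against 1.72 to 10.5 CPM (7.57-fold higher), Hcn3 was 3.38-fold higher and 1 of the others was lower. Of 8 calcium channel genes, 5 were higher and 3 lower. Cacna1d, an L-type channel, stood at 358, 400 and 380 CPM against 74.4 to 175 CPM and was 2.89-fold higher, and Cacna1c and Cacna1i were each higher by about 1 log2 unit (1.06 and 1.09).

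**Figure D4:**
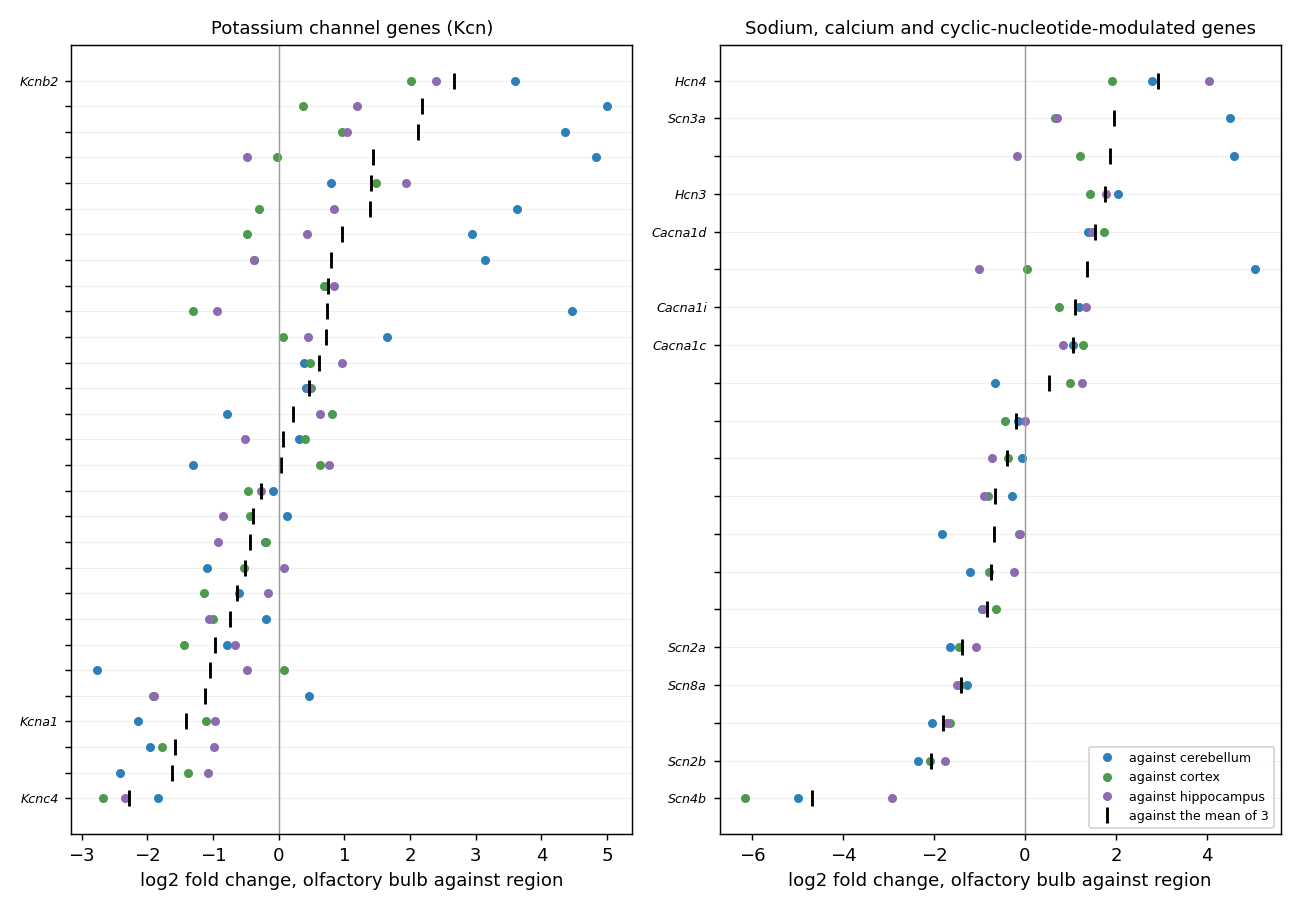
Log2 difference of wild-type olfactory bulb from each other region (coloured points) and from the mean of the 3 (black ticks) for 49 voltage-gated channel genes, ordered by the ticks, with potassium channels in the left panel and the others in the right, and names given for genes described in the text. The ticks of 6 sodium channel genes lie below 0, with Scn4b lowest, and those of 2 lie above it, while the potassium channel ticks spread to both sides.

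Receptors of the main transmitters changed singly. Of 30 GABA and glycine genes, 11 were higher and 10 lower. Gabbr2, an obligate subunit of the metabotropic GABA receptor, stood at 63.7, 65.0 and 64.7 CPM, against 322 to 377 CPM in cerebellum, 454 to 542 CPM in cortex and 333 to 458 CPM in hippocampus. It was 6.43-fold lower (edgeR adjusted p = 7.2e-10), whereas its partner Gabbr1 had a log2 difference of -0.49. Slc6a11, the GABA transporter of astrocytes, stood at 542, 595 and 637 CPM against 45.4 to 258 CPM and was 4.90-fold higher. Gabra5, an extrasynaptic subunit, stood at 112, 108 and 118 CPM, between hippocampus (132 to 192 CPM) and cortex (42.8 to 54.1 CPM), with a log2 difference of 2.29 from the mean, or 2.99 without cerebellum replicate 1.

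Of 41 glutamate synapse genes, 10 were higher (24.4%, against 18.4% of all genes) and 14 lower (34.1%, against 17.5%). Grm8 and Grm2, metabotropic receptors that lower transmitter release, were 4.21-fold and 2.91-fold higher, and Grin2d, an NMDA receptor subunit of interneurons, was 2.30-fold higher. Shank3, a scaffold of the postsynaptic density, stood at 86.7, 119 and 134 CPM against 246 to 371 CPM and was 2.79-fold lower. Grik4, a kainate receptor subunit of the hippocampal mossy fibre synapse, was 3.29-fold lower.

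Neuropeptides and their receptors varied by gene. Of 30 peptide genes 12 were higher than the mean and 8 lower (5 lower without olfactory bulb replicate 2). Of 31 receptor genes 12 were higher and 9 lower. Against cerebellum alone 18 peptide genes were higher and 3 lower, against cortex 4 and 16, and against hippocampus 11 and 9. For receptor genes these counts were 17 and 2, 4 and 17, and 9 and 14. In both lists, the counts lower than cerebellum and higher than cortex lay below the shares over all genes tested (17% and 18.7%). The other single-region counts lay above those shares. Vipr2, a receptor for vasoactive intestinal peptide and PACAP, stood at 85.6, 79.1 and 89.8 CPM, against 13.2 to 18.4 CPM in cerebellum, 2.27 to 3.43 CPM in cortex and 0.526 to 0.976 CPM in hippocampus. It was 26.1-fold higher (log2 4.70, SE 0.14, edgeR adjusted p = 1.71e-11). Vipr1, the other receptor of that pair, stood at 1.62, 5.43 and 5.15 CPM against 7.98 to 32.1 CPM and was 4.28-fold lower. Trh, thyrotropin-releasing hormone, stood at 31.6, 35.0 and 34.5 CPM, 2.08 log2 units above cortex (10.3, 4.54 and 8.73 CPM). Sst, somatostatin of interneurons, stood at 3.87, 3.17 and 4.20 CPM, near cerebellum (0.565 to 10.1 CPM) and far below cortex and hippocampus (65.8 to 151 CPM). Its log2 difference was -3.32, or -2.69 without cerebellum replicate 1. Galr1, a galanin receptor, had no count in olfactory bulb and was at least 18.2-fold, 36.8-fold and 9.89-fold lower than cerebellum, cortex and hippocampus. Nxph1, a neurexin ligand of interneurons, was 4.15-fold higher.

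Axon guidance genes split evenly against the mean of the regions, with 17 of 46 higher and 17 lower, but not against single regions. Against cerebellum alone 28 were higher and 9 lower, against cortex 11 and 23, and against hippocampus 12 and 25. Sema3c, a secreted semaphorin, stood at 136, 122 and 117 CPM against 13.5 to 44.3 CPM and was 4.33-fold higher, and the ephrin receptor Epha3 was 2.70-fold higher. Ephb2 and Ephb1, ephrin-B receptors, were 4.79-fold and 4.16-fold lower, and the netrin receptor Unc5c stood at 34.6, 34.7 and 32.7 CPM against 83.6 to 189 CPM, 3.66-fold lower.

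Markers of other cells that a dissection may include moved unevenly, and their part in the results above was not tested. Of 19 microglia genes 7 were higher and none lower, with a summed level of 334 to 444 CPM in olfactory bulb, 130 to 156 CPM in cerebellum, 394 to 595 CPM in cortex and 403 to 515 CPM in hippocampus. Their median log2 difference was 1.57 from cerebellum and -0.32 from cortex, and only 2 passed as higher without olfactory bulb replicate 2. Of 19 meningeal genes 7 were higher, 3 without olfactory bulb replicate 2 or without replicate 3, and 11 without cortex replicate 1. Their summed level was 885 to 1350 CPM in olfactory bulb and 499 to 1242 CPM elsewhere. Col1a1, a collagen of fibroblasts, was 162 CPM in olfactory bulb replicate 3 and 28.5 and 30.9 CPM in the other two, with a log2 difference of 1.58 that became 0.26 without replicate 3. Of 20 endothelial and mural genes, 2 were higher and 1 was lower.

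Choroid plexus genes were lower in 8 of 16 cases with a median of -3.15, but their level varied strongly within regions. Their summed level was 156 to 177 CPM in olfactory bulb, 158 to 2078 CPM in cerebellum, 302 to 665 CPM in cortex and 179 to 3347 CPM in hippocampus. Ttr, the transport protein of choroid plexus, ran from 2.45 to 956 CPM within cerebellum, from 2.82 to 213 CPM within cortex and from 4.58 to 2108 CPM within hippocampus, and did not pass the test (edgeR adjusted p = 0.0904). The count of lower genes was 2 without olfactory bulb replicate 2 or 3, 3 without olfactory bulb replicate 1 or cortex replicate 1, 4 without cerebellum replicate 1 or cortex replicate 2, and 5 without cerebellum replicate 2 or hippocampus replicate 1. It was 2 with the no-feature percentage as covariate, and 3 with no filter on low counts or with the replicate number as a block. Aqp1, a water channel of choroid plexus and of olfactory nerve glia, was the exception, at 30.7, 36.1 and 37.8 CPM against 0.367 to 12.1 CPM. Of the olfactory epithelium list, 10 of 18 genes could be tested, 3 were higher and 4 lower, with 5 higher without olfactory bulb replicate 1, cerebellum replicate 1 or hippocampus replicate 3 and 6 without cortex replicate 1. Cyp2a5, a cytochrome P450 of nasal mucosa, stood at 4.25, 11.6 and 62.1 CPM against at most 0.744 CPM elsewhere. Olfactory bulb replicate 3 was far above the other two, and the log2 difference of 6.62 became 4.90 without replicate 3. Among blood genes, S100a8, of neutrophils, had 0, 3.87 and 1.58 CPM in olfactory bulb and passed as higher (log2 3.86), but not without olfactory bulb replicate 2 (edgeR adjusted p = 0.0563). The haemoglobin gene Hba-a1 passed as higher (log2 0.45). It did not pass without olfactory bulb replicate 1 (edgeR adjusted p = 0.0721) or 2 (0.186), or without cerebellum replicate 1 (0.0502). Hba-a2 did not pass. Of 5 tested blood genes, 3 were higher and 0 lower, and the count of higher genes ran from 0 to 5 over the alternatives. Of 16 markers of striatum, thalamus and hypothalamus, 1 was higher and 6 lower.

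Immediate early genes, which respond to activity and to handling, were higher than the mean in 10 of 30 cases and lower in 4 (7 lower without cortex replicate 2). The direction differed between cerebellum and cortex. Against cerebellum alone 16 were higher and 2 lower, against cortex 3 and 11, and against hippocampus 5 and 7. Sik1, a kinase induced by cAMP, stood at 48.6, 53.1 and 76.3 CPM against 11.6 to 32.5 CPM (2.97-fold). Fos ran from 12.1 to 47.5 CPM within olfactory bulb, and its log2 difference of 1.03 did not pass without replicate 2 (edgeR adjusted p = 0.0623), without replicate 3 (0.327) or without hippocampus replicate 1 (0.0513). Without olfactory bulb replicate 3 the count of genes higher than the mean was 6. Bdnf, an activity-dependent growth factor, was 3.40-fold lower. None of 45 ribosomal protein genes passed the test in either direction (edgeR), and none had an unadjusted p under 0.05. Their median was -0.02. Against cerebellum alone 13 of the 45 were higher, a larger share than the 19.6% of all genes tested. Against hippocampus alone 8 of the 45 were lower, about the same share as the 18% of all genes tested.

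The same comparison in the 12 Cdr1as knockout libraries, which share no library with the wild type, was made with the same model. Cdr1as itself was at 354 to 4315 CPM (unscaled totals) in the 12 wild-type libraries and at 0 to 0.637 CPM in the 12 knockout libraries. In wild type it stood at 965, 848 and 833 CPM in olfactory bulb, against 3871 to 4274 CPM in cerebellum, 738 to 1229 CPM in cortex and 368 to 720 CPM in hippocampus. Its log2 difference of -0.52 (edgeR adjusted p = 0.0397) did not pass without any 1 of the olfactory bulb replicates, of cerebellum replicates 1 and 2 or of cortex replicate 1 (adjusted p from 0.0505 to 0.124). It also did not pass with the replicate number as a block (edgeR adjusted p = 0.0652). In knockout, 1163 of 16764 genes tested were at least 2-fold higher in olfactory bulb (6.94%) and 846 at least 2-fold lower (5.05%). Of the 1479 genes found higher in wild type, 911 (61.6%) were found in knockout, and these were 78.3% of the knockout genes. Of the 1068 lower genes, 707 (66.2%) were found in knockout, 83.6% of the knockout genes. Of 149 genes named by size, as list members, as key markers or by the genotype contrast, 144 had the same sign in both genotypes. Many of these were picked for the size of their wild-type difference, so this count describes them and tests nothing. The same share over all genes tested was not counted.

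The difference between genotypes was itself tested over all 24 libraries. None of 17600 genes differed in the olfactory bulb contrast at an adjusted p under 0.05 (edgeR quasi-likelihood test), and 646 (3.67%) had an unadjusted p under 0.05. The 5 genes with the smallest unadjusted p were Nr4a3, Zfp37, Plk2, Fosl2 and B3gnt3. Nr4a3, an activity-induced nuclear receptor, had a log2 contrast 1.29 higher in knockout. Without wild-type olfactory bulb replicate 3 it was the 1 gene that passed, with a contrast of 1.76 (adjusted p = 0.0183).

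**Figure D5:**
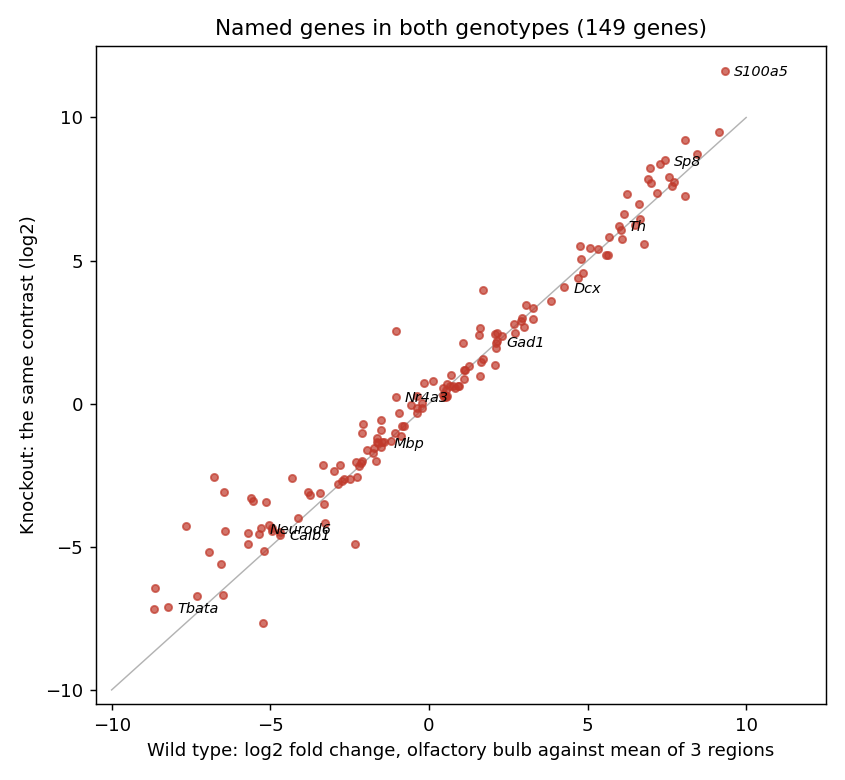
Log2 difference between olfactory bulb and the mean of the other 3 regions in wild type (horizontal axis) and in knockout (vertical axis), 1 point for each of 149 named genes, with the diagonal of equal values. Of these, 144 have the same sign in both genotypes, a count that tests nothing because many were picked for their wild-type difference. Fitted values of genes near 0 counts in a region depend on the prior count.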

How the data were processed

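Total RNA of 4 brain regions was sequenced after ribosomal RNA depletion, with a stranded kit per the labels' protocols. The authors deposited unnormalized gene counts for each library, and the submitters' processing notes name bcl2fastq 2.17.1.14, STAR 2.5.1b, HTSeq 0.6.1p1 and the mm9 build. Whether counting used strand is not given in the sources used here. Left out of tests were the 5 summary rows of each file. Symbols and exon lengths came from GENCODE M21, which named 32897 of 37620 Ensembl identifiers (98.56% of counts).

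Genes were kept by filterByExpr (minimum count 10), TMM-scaled and tested with edgeR 4.0.16 (quasi-likelihood, two-sided, Benjamini-Hochberg) in R 4.3.3 over the 12 wild-type libraries, with 4 groups and no covariate. CPM is TMM-scaled; pooled CPM and the floor of 3 counts use unscaled totals and cover counting error only. Library totals ran from 7.4 M to 30.46 M counts in wild type. On simulated data with 16586 genes, the olfactory bulb contrast recovered 82.7% of genes changed 2-fold and 77.9% of those changed 4-fold, and called 2 of 16393 unchanged genes.

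Members and lists were chosen with earlier results of these data known. Genes were named by size of difference (12 in each direction, and 5 in each direction against each region), up to 4 called members of each list, or 2 by smallest p where none was called, a list of key markers, and the 5 smallest p of the genotype contrast. Other list members were named after their values were seen. Of 809 list entries, 16 were not matched. Some genes of the lists are counted but not reported singly here. Alternatives were other scalings and filters, DESeq2 1.42.0, glmTreat, a replicate block, all 24 libraries in 1 fit, the no-feature percentage as covariate, an arithmetic mean of regions, and each library left out.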

Additional observations from a re-analysis of the deposited data

How the results depend on the processing

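Leaving out each wild-type library in turn gave 2438 to 3889 higher and 2315 to 3534 lower genes, 1356 to 1811 and 1022 to 1138 by at least 2-fold, and 517 to 671 and 325 to 367 against each region. The genotype contrast gave 0 to 1 genes over the libraries left out, the 1 being without wild-type olfactory bulb replicate 3. Tested against a 1.5-fold difference with glmTreat, 1300 genes were higher and 1051 lower. The arithmetic mean of regions turned Zic1 from 0.56 to -1.33. Upper-quartile scaling shifted the median of all genes to 0.065, and the share of calls that were higher ran from 47.9% to 57.9% over the alternatives, against 51.3%. With the replicate number as a block, 3501 genes were higher and 3332 lower, 3 rather than 8 choroid plexus genes were lower, and Cdr1as did not pass (adjusted p = 0.0652). Deviations correlated above 0.1 in 13 of 18 same-numbered pairs of libraries (median r 0.131) and in 2 of 36 others (median -0.051). As this was not every same-numbered pair and the labels name no shared animal or batch, the fit without the block was kept. In 30 of 36 combinations of a library and another region, the highest correlation was with its own number, a hint from the data, not the design. With the no-feature percentage as covariate, 15 of 45 ribosomal protein genes were higher, against 0. Low counts limit genes near 0 in a region and most olfactory receptors.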

Other observations

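Against the mean of the regions, several classes of non-coding genes had a larger share of higher members than protein-coding genes had. The counts depended on the setting and on the region. Of 146 tested genes annotated as miRNA, 27 (18.5%) were at least 2-fold higher than the mean of the regions and none was lower, against 7.74% of 14539 protein-coding genes. Processed pseudogenes gave 52 of 381 (13.6%) and snRNA genes 17 of 77 (22.1%). Against single regions the share for miRNA genes was 26% for cortex, 9.59% for cerebellum and 7.53% for hippocampus. For protein-coding genes these shares were 7.59%, 13.2% and 7.44%. The miRNA share was thus larger against cortex, smaller against cerebellum and about level against hippocampus. The share of reads in no feature was 58.71% to 62.92% in olfactory bulb and as low as 20.34% in cortex, and its part in the result was not tested beyond 1 fit. In that fit, chosen after seeing the data, with the share as a covariate, 11 miRNA genes (7.53%), 16 pseudogenes and 5 snRNA genes were called. The same fit called 7.44% of protein-coding genes, 4.2% of pseudogenes and 6.49% of snRNA genes as higher. In the knockout libraries the share was 4.35% for miRNA genes and 5.13% for pseudogenes, below the 6.85% for protein-coding genes. The difference between these gene classes was not tested.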
